A study of Mus musculus with 2 samples.

Results

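The ribosome of the cytosol is built from a large and a small subunit, and each of its proteins is needed once per particle, apart from the stalk proteins Rplp1 and Rplp2, which are present in more than 1 copy. Growing embryonic cells are known to make these mRNAs in large amounts, and most of them begin with a run of pyrimidines at the start site, the TOP motif, through which their translation follows nutrient signalling. Ribosomal protein genes are also known for many processed pseudogenes, for small nucleolar RNAs (snoRNAs) encoded in their introns, and for mouse mutants with skeletal, pigment or blood defects. The 80 genes of this family, 48 of the large and 32 of the small subunit, are described here out of 23157 genes in a deposited RNA-seq table. They were chosen by symbol alone (Rpl or Rps with a number, an optional a, l or x and an optional digit, plus Rplp0, Rplp1, Rplp2 and Rpsa), and pseudogene symbols ending in -ps were left out. They comprise 296 of the 64053 transcripts listed.

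Distal forelimbs of E12.5 mouse embryos (strain C57Bl6CBAF1) were sequenced as 1 library labelled wild type and 1 library homozygous for HoxD Inv(TpSB1-Itga6), an allele in which a 2.4 Mb segment of chromosome 2 is turned around. Each library came from a pool of 3 pairs of forelimbs, and poly(A)-selected RNA was sequenced with 100-base single reads. The libraries held 9280660 assigned reads (wild type) and 9466154 (inversion), recovered as whole numbers from reads that had been divided by a size factor. The limb mesenchyme markers were present in both, for example Prrx1 with 3857 and 3913 reads, and the allele's known target Hoxd13 had 2264 and 1522.

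Each genotype was sequenced as 1 library, so the differences have no replicate check and no p-value is given. Pairs of numbers below are reads in the wild-type and then in the inversion library. A log2 ratio is that of inversion over wild-type normalized reads with a pseudocount of 1, and is above 0 where the inversion library was higher. It was read for genes whose mean over both libraries reached 10 normalized reads. Each ratio is given with a 95% interval, obtained from the exact binomial (Clopper-Pearson) interval of the proportion of the reads that came from the inversion library. Such an interval reflects counting error alone and describes the libraries rather than the genotypes. The pools also differed in the RNA of embryo sex, since Xist had 2607 and 13 reads and the Y-linked Ddx3y had 282 and 790, so that sex and genotype cannot be told apart.

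Most ribosomal protein genes had few assigned reads, and a few genes held a large part of them. The 80 genes together had 24713 and 28204 reads, which is 0.266% of the wild-type library (95% interval 0.263 to 0.270) and 0.298% of the inversion library (0.294 to 0.301). The 76 genes for proteins of the mitochondrial ribosome had 31125 and 30018 reads. Rps3, a small subunit protein at the entry side of the mRNA channel, had 4290 and 3543 reads. Rpl8, a large subunit protein near the catalytic centre, had 2326 and 2219. Rps3 and Rpl8 together held 26.8% (wild type) and 20.4% (inversion) of the family's reads.

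Further members among the 10 with the highest mean were Rpl22 with 1268 and 1384 reads, Rps9 with 756 and 1071, Rpl4 with 681 and 703, Rpl24 with 529 and 618, Rpl13a with 452 and 686, Rpl7l1 with 551 and 515, and Rpl10a with 315 and 639. Most reads of Rpl24 lay in a transcript that the GENCODE M21 annotation places in another gene. At the other end stood Rps27 with 11 and 13 reads, Rpl23a with 10 and 28, Rpl35 with 9 and 39 and Rpl39l with 8 and 4. Rpl39l was the only member whose mean was too low to pass. In all, 36 members had a mean under 100 normalized reads and 4 had a mean of at least 1000.

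Ribosomal protein genes were mostly higher in the inversion library. Among the 79 that passed the filter, 70 had a log2 ratio above 0 and 21 were at least 2-fold higher, whereas 0 were at least 2-fold lower. Of all 16756 genes that passed, 3.99% were higher by that much and 0.483% lower, and 46.6% had a log2 ratio above 0. The median log2 ratio was 0.46 for the family and -0.02 for all genes. The interval lay above 0 for 42 members, against 16.7% of all genes, and below 0 for 3, against 13% of all genes. Rps3 and Rpl8 were among the latter. Leaving out the 27 members whose annotated span overlaps another gene, an alternative chosen after the values were seen, left 12 of 52 at least 2-fold higher and a median of 0.44. The markers of muscle summed to 670 and 1043 reads and those of cartilage to 8559 and 10899, whereas those of red cells summed to 24436 and 21351 and those of ectoderm to 4212 and 3720. Within these lists Pax3 of muscle (26 and 20) and Sox9 of cartilage (1823 and 1751) were lower. Markers of distal mesenchyme summed to 13343 and 12545, of endothelium to 2872 and 2774, of macrophages to 545 and 500, and of Schwann cells and neural crest to 282 and 366. The part of tissue composition in these ratios was not tested, and in bulk tissue fewer cells of a type and less RNA per cell cannot be told apart.

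**Figure D1:**
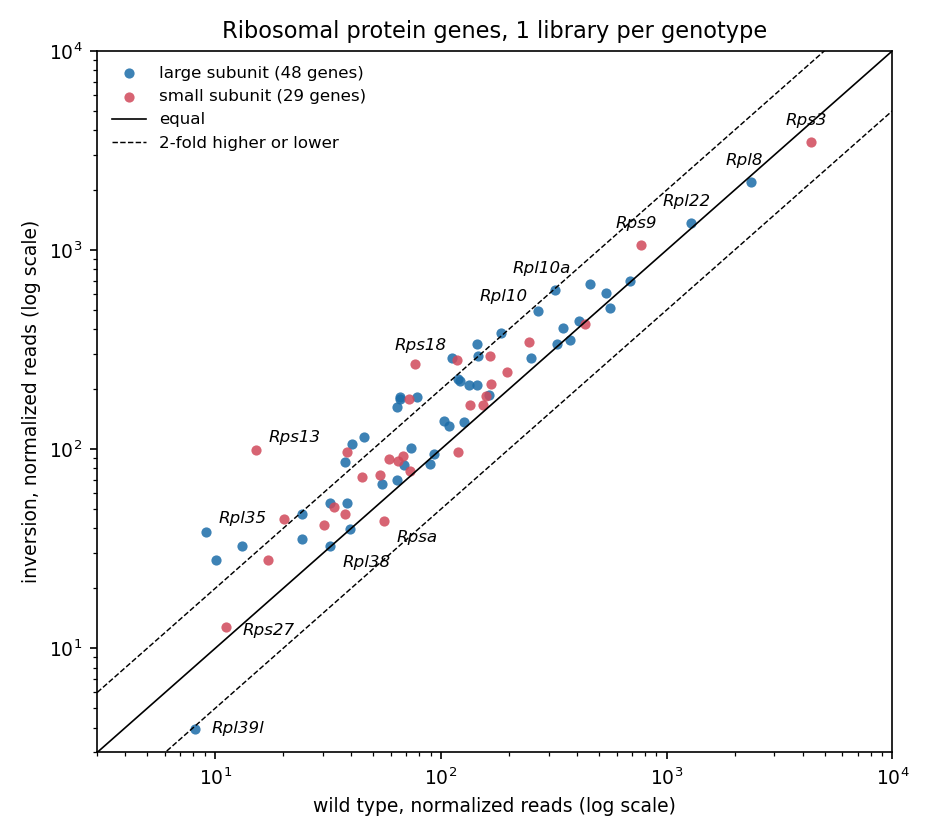
Normalized reads of 77 ribosomal protein genes in the wild-type library (horizontal, log scale) and the inversion library (vertical, log scale), with 1 point per gene coloured by subunit, a solid line for equal values and dashed lines for 2-fold differences. Genes with few reads lie mostly above the solid line, whereas Rps3 and Rpl8, at the upper right, lie just below it.

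The members with the highest ratios were all low in the wild-type library. Rps13, a small subunit protein, had 15 and 100 reads, a log2 ratio of 2.62 (95% interval 1.91 to 3.59), and was the only member at least 4-fold higher. Rpl35 followed with 9 and 39 reads (1.97, 1.01 to 3.31), Rps18 with 76 and 270 (1.78, 1.42 to 2.18), and Rpl7 with 65 and 185 (1.46, 1.06 to 1.90). In each of these 4 genes the interval stayed above 0, so the difference between the libraries was larger than counting error. The spans of Rpl35 and Rps18 overlap genes on the opposite strand. Near the 2-fold limit, Rpl12 with 183 and 387 reads lay just inside and Rpl30 with 144 and 296 just outside.

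At the lower end stood Rpsa, the small subunit protein also known as the laminin receptor precursor, with 55 and 44 reads (-0.35, -0.96 to 0.24). Rps3 (-0.31, -0.38 to -0.25) and Rps27l with 117 and 98 reads (-0.29, -0.69 to 0.11) came next. Rpl7l1, at -0.13 (-0.31 to 0.04), was also among the 5 lowest. The decrease was larger than counting error for Rps3 and not detectable at this depth for Rpsa, Rps27l and Rpl7l1.

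The ratios differed with the level of the gene. The median log2 ratio was 0.53 for the 35 members that passed with a mean under 100, 0.74 for the 28 with a mean of 100 to 300, and 0.07 for the 16 with a mean of at least 300. Over all genes the same classes had medians of 0.07, -0.01 and -0.04. None of the 16 members in the highest class was at least 2-fold higher or lower, and 6 had an interval above 0 and 3 below. Over all 8519 genes of that class, 1401 had an interval above 0 and 1796 below.

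**Figure D2:**
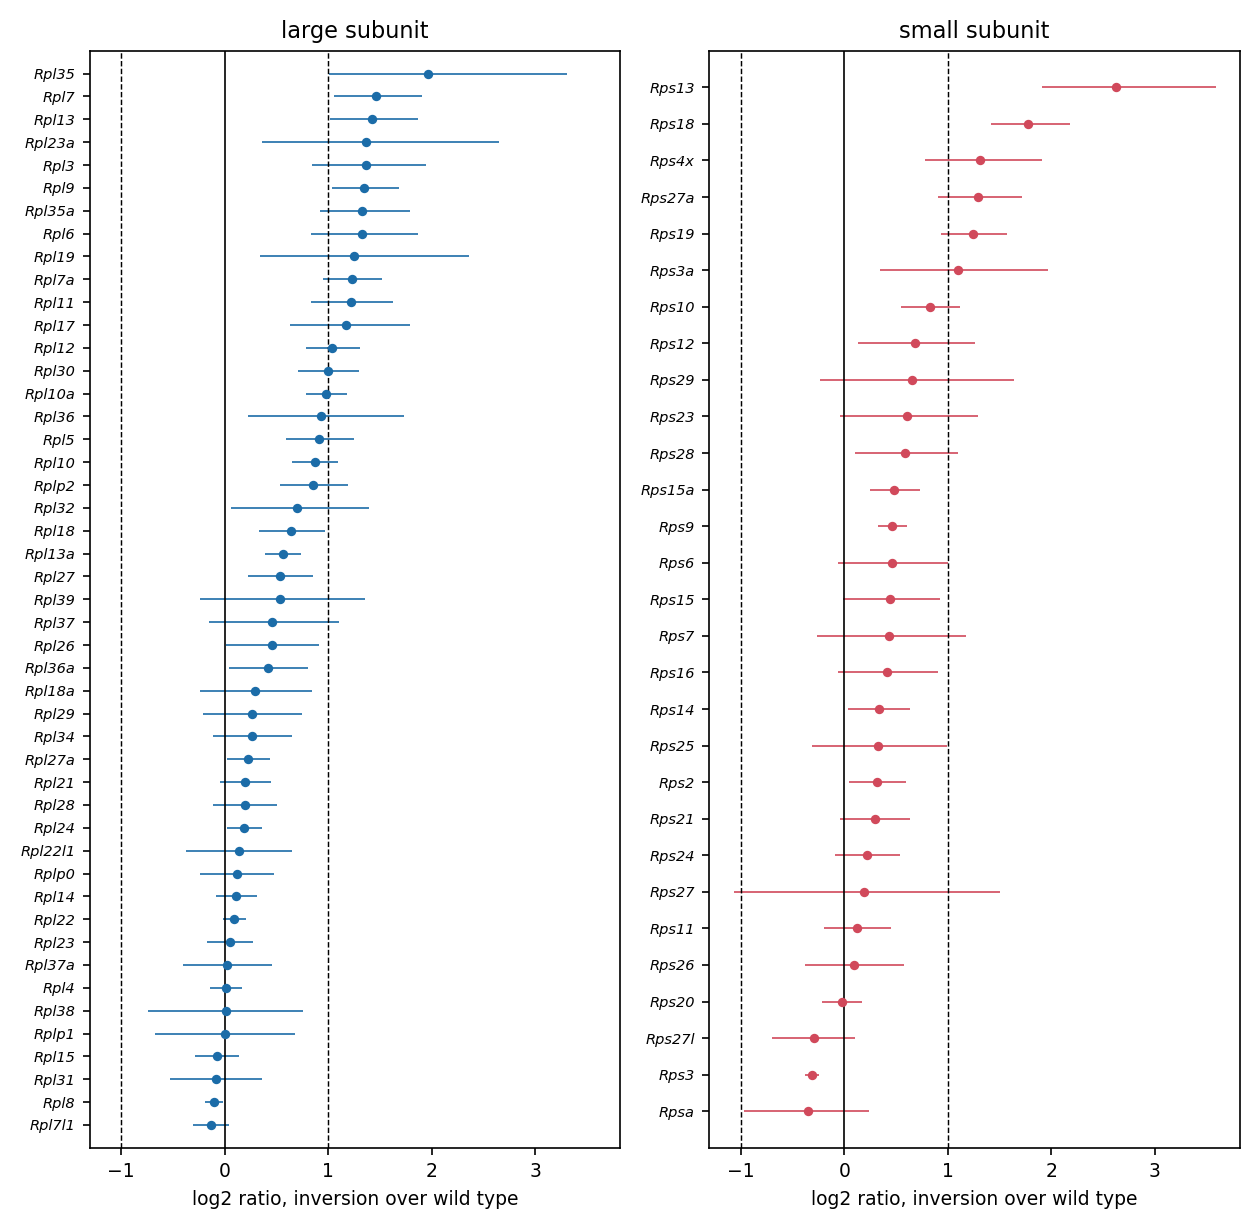
Log2 ratio of inversion over wild type (horizontal) for 76 ribosomal protein genes that passed the filter, sorted within the large subunit (left) and the small subunit (right), with 95% counting intervals as bars, a solid line at 0 and dashed lines at 2-fold differences. In both subunits most points lie to the right of 0, with Rps13 at 2.62 the highest and Rpsa at -0.35 the lowest.

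The subunits were compared next. The median log2 ratio was 0.53 over 47 large subunit genes, of which 13 were at least 2-fold higher, and 0.45 over 32 small subunit genes, of which 8 were. The difference of the medians was 0.08. It was -0.01 when protein-coding transcripts alone were used and -0.27 when each gene was represented by its transcript with the highest mean. Summed reads gave another picture, as the large subunit had 10716 and 13802 reads (log2 ratio 0.33, 0.29 to 0.37) and the small subunit 13997 and 14402 (0.01, -0.03 to 0.04). The large subunit thus held 43.4% (wild type) and 48.9% (inversion) of the family's reads. Without Rps3 the small subunit summed to 9707 and 10859 reads, a log2 ratio of 0.13 (0.09 to 0.17).

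Where within the genes these reads lay was examined through the annotated type of each transcript. The types are those of GENCODE M21, and 275 of the 296 member transcripts (92.9%) were matched by identifier. A transcript typed protein coding has an annotated reading frame, one typed retained intron keeps intron sequence, and one typed processed transcript has no annotated reading frame. The deposited table does not tell how a read that fits several transcripts of a gene was divided among them. In the protein-coding transcripts the family had 18828 and 18312 reads, a log2 ratio of -0.08 (-0.11 to -0.05). Without Rps3 this sum was 15776 and 15909, a log2 ratio of -0.02 (-0.06 to 0.01), so that the difference was then within counting error. In transcripts of the other types it had 4814 and 8316 reads (0.75, 0.70 to 0.80).

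Retained-intron transcripts made up most of the second group, with 4062 and 6732 reads (0.69, 0.64 to 0.75). Processed transcripts had 560 and 1364 (1.25, 1.11 to 1.39), whereas transcripts typed as targets of nonsense-mediated decay had 192 and 220 (0.16, -0.13 to 0.45). Over all genes, retained-intron transcripts had a summed log2 ratio of 0.24 and processed transcripts 0.07. The share of matched reads outside protein-coding transcripts was 20.4% and 31.2% for the family, 16.3% and 32.0% for the large subunit, and 23.4% and 30.5% for the small subunit. It was 16.6% and 18.2% for all genes and 22.2% and 24.2% for the mitochondrial ribosomal proteins.

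**Figure D3:**
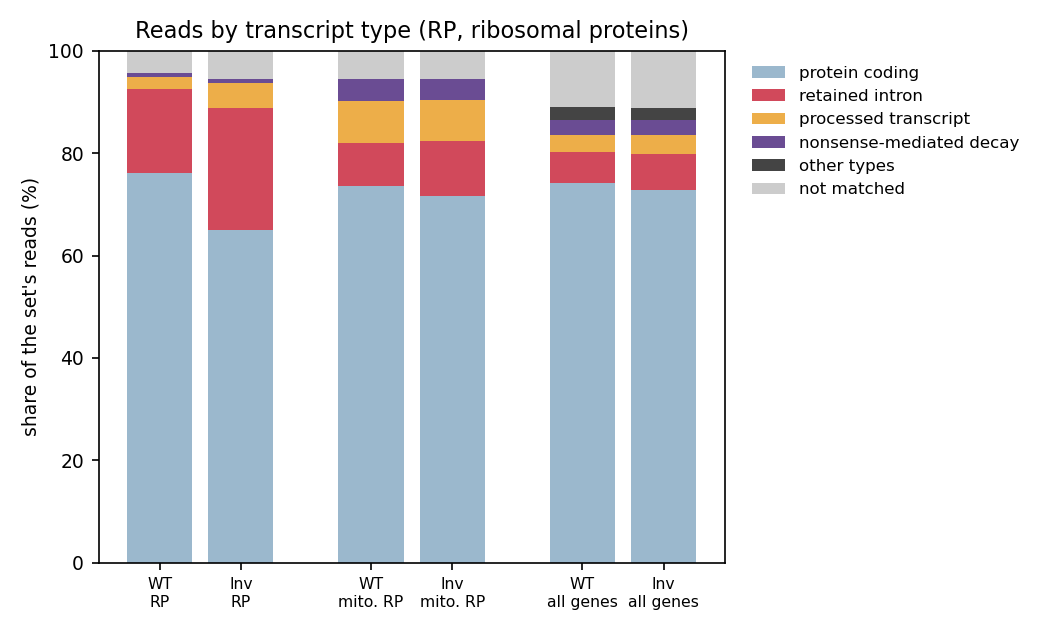
Share of reads (vertical, in percent) by annotated transcript type, as stacked bars for the wild-type (WT) and inversion (Inv) libraries, for ribosomal protein genes (RP), mitochondrial ribosomal protein genes (mito. RP) and all genes. The retained-intron share of the ribosomal protein genes is 16.4% in the wild-type and 23.9% in the inversion library, against 5.99% and 7.12% for all genes.

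Gene by gene the same split was seen. With protein-coding transcripts alone, 69 members passed the filter, their median log2 ratio was 0.09, and 3 were higher and 2 lower by 2-fold or more, against 3.03% and 0.81% of all genes. Their log2 ratio was above 0 in 47, against 42.9% of all genes, and the interval lay above 0 for 10 and below 0 for 6, against 13.3% and 15.3%. The 3 higher genes were Rpl3 with 40 and 107 reads, Rpl17 with 37 and 87, and Rps3a with 20 and 45. Each of these 3 is listed with only 1 transcript, so that its reads could not be given to another type. The 2 lower ones were Rpl13a and Rps27a, the latter a fusion of ubiquitin and a small subunit protein, with 24 and 11 coding reads. With transcripts of the other types alone, 46 members passed, their median was 1.31, and 30 were at least 2-fold higher and 0 lower, against 7.28% and 0.762% of all genes. The ratio was above 0 in 43, against 55.6% of all genes, and the interval lay above 0 for 39 and below 0 for 1 (Rps3), against 20.8% and 5.01%. The median of all genes in that class was 0.04.

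For the 38 members that passed in both classes, the ratio of the other types was above that of the coding transcripts in 35, with a median difference of 1.20. Their counting intervals did not overlap in 23, all with the other types higher. Over the 5377 genes that passed in both classes, 66.9% had the other types higher, the intervals lay apart in that direction in 673 genes and in the opposite one in 2.01%, and the median difference was 0.11. Rpl10, an X-linked large subunit protein that is added late in assembly, had 95 and 64 reads in coding transcripts (-0.60, -1.09 to -0.13) and 170 and 433 in the other types (1.31, 1.05 to 1.58), so that its intervals lay on opposite sides of 0. Rps27a was another such case, with 47 and 169 reads in the other types. Rpl27a had 332 and 343 coding reads and 11 and 69 of other types. Rpl27, which had 143 and 159 coding reads, had 0 and 54 in processed transcripts. The split was small in Rps3, at -0.38 in coding transcripts and -0.15 in the other types. In Rps9, Rplp0 and Rps27l the other types were not above the coding transcripts, and their intervals overlapped.

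**Figure D4:**
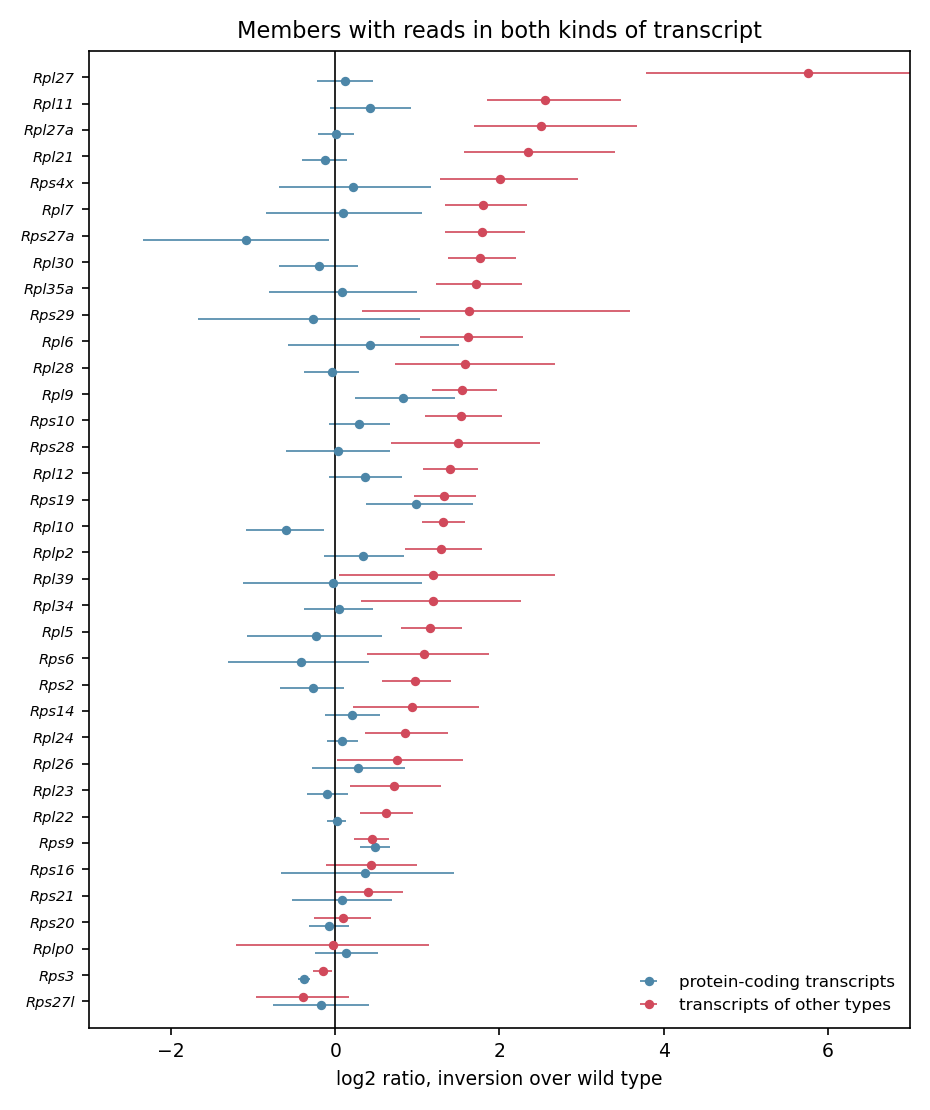
Log2 ratio of inversion over wild type (horizontal) for 36 ribosomal protein genes that passed the filter in both protein-coding transcripts (blue) and transcripts of other types (red), with 95% counting intervals as bars. The red points lie to the right of the blue ones in 33 genes, and Rpl27, with 0 wild-type reads of other types, has no upper bound and runs off the axis.

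The 4 retained-intron transcripts of the family with the largest gain in normalized reads that keep a whole intron, chosen after their values were seen, are shown at the border between an exon and the kept intron. The table holds no read positions, so a read given to such a transcript need not cover this border. Each line below gives the last 25 exon bases in lower case and the first 25 bases of the kept intron in capitals, from GRCm38, on the strand of the gene. The kept intron begins with GT in all 4, the usual start of an intron.

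Rpl10a (chr17:28329498-28329547, plus strand, intron 3): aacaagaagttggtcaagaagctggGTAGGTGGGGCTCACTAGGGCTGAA

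Rpl30 (chr15:34442610-34442659, minus strand, intron 2): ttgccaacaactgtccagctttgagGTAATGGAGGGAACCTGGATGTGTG

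Rps19 (chr7:24885182-24885231, plus strand, intron 1): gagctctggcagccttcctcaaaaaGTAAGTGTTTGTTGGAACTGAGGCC

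Rpl35a (chr16:33057518-33057567, plus strand, intron 2): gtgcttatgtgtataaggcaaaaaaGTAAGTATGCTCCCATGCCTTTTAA

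The Rpl10a transcript had 153 and 335 reads (1.09, 0.81 to 1.38), that of Rpl30 43 and 186 (2.05, 1.59 to 2.59), that of Rps19 26 and 130 (2.24, 1.67 to 2.95) and that of Rpl35a 27 and 116 (2.03, 1.45 to 2.73). Their gain in the inversion library follows from this choice. A whole kept intron was not shared by all transcripts of the other types. Those that keep at least 1 whole intron (64 transcripts) had 3557 and 5615 reads (0.62, 0.56 to 0.68). Those that keep no whole intron (85 transcripts) had 1257 and 2701 (1.07, 0.97 to 1.17). Many of the latter are typed retained intron, so they too can hold intron sequence.

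The class of a transcript limits what can be said of some members. Rpl10a, Rpl13, Rpl18, Rpl23a, Rps18 and Rpl7a had no transcript typed protein coding in the table, so that all their reads belong to other types or to transcripts that were not matched. The reads of Rps13 lay almost wholly in an unmatched transcript with 12 and 100 reads, and its coding transcript had 3 and 0. Rpl13a, a large subunit protein, had 65 and 3 reads in its coding transcript (-4.08, -6.79 to -2.86) and 387 and 683 in unmatched ones, and the gene as a whole was at 0.57 (0.39 to 0.74).

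Intronic snoRNAs were considered as a feature that the choice of genes did not use. GENCODE places 58 snoRNA genes inside 30 of the members. The median log2 ratio was 0.69 for these hosts and 0.44 for the 49 other members that passed. In transcripts of other types alone the medians were 1.30 for 18 hosts and 1.40 for 28 others, and in coding transcripts 0.01 and 0.10. The 15 transcripts of other types with a snoRNA inside an exon summed to 879 and 1618 reads (0.84, 0.72 to 0.96), and the remaining 134 summed to 3935 and 6698 (0.73, 0.67 to 0.79). The 2 intervals overlapped.

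The low levels of most members were set beside the uniqueness of their sequences. For each member the coding sequence was cut into overlapping windows of 50 bases, and each window was looked up in all other GENCODE genes. The median member had 10.2% of windows found in no other gene, and 78 members shared at least 1 window with another locus. In all, 1121 loci shared windows with the family, of which 1091 are annotated as pseudogenes. The class with 0 to 20% unique windows held 55 genes, of which 48 had a coding transcript. Over these 48 the median level was 46.7 normalized coding reads per kilobase in the wild-type library. It was 77.8 at 20 to 50% (12 genes) and 129 at 50 to 80% (9 genes). Above 80% (4 genes) stood Rpl8 with 2309, Rps3 with 1620 and Rpl39l with 10.1 reads per kilobase. Rpl8 and Rps3 were also among the genes with the most reads, whereas Rpl39l was the one with the fewest. Rpl24 had no unique window and 691 reads per kilobase, but that level is overstated. It was divided by a length of 677 bases, whereas 453 of its 462 wild-type coding reads lay in a transcript of 4920 bases. GENCODE M21 places that transcript in another gene, and the coding transcript of 677 bases had 9 wild-type reads.

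Across the 73 genes with a coding transcript, Spearman's rho between the share of unique windows and the level per kilobase was 0.38, and 0.29 with windows of 100 bases. This is a description over genes of 1 library. The median log2 ratio was 0.64 in the least unique class, 0.28 at 20 to 50% and 0.13 at 50 to 80%. In coding transcripts alone it was 0.12, 0.11 and 0.03 in the same order, and in transcripts of other types 1.53, 1.19 and 0.42. How the authors treated reads that fit several places is not given in the sources used here, and the part of such reads in the levels or the ratios was not tested. The rows of pseudogenes named after members had 1898 and 1907 reads, a summed log2 ratio of -0.03 (-0.12 to 0.06).

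**Figure D5:**
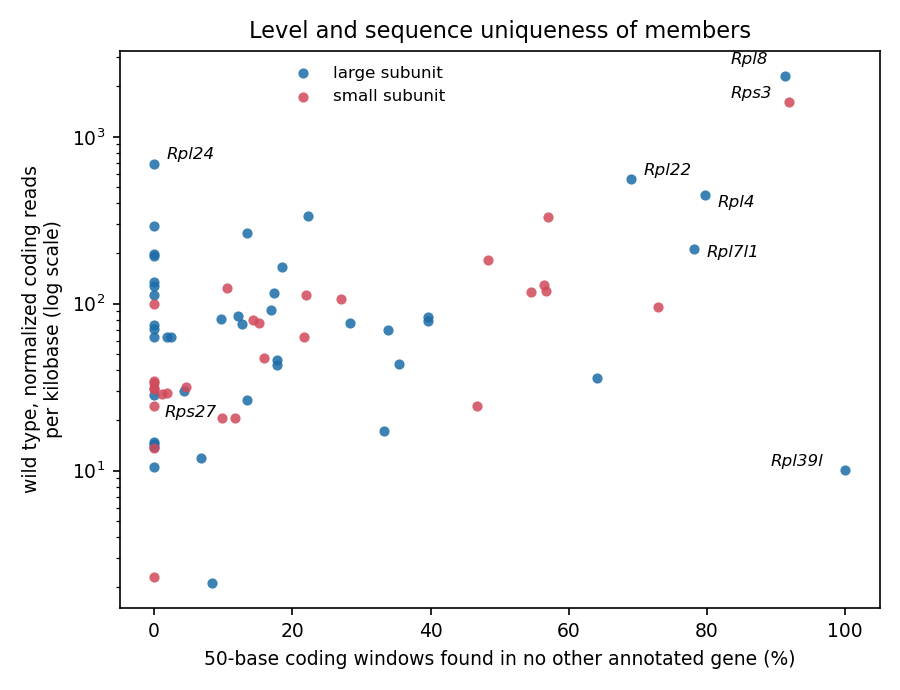
Share of 50-base coding windows found in no other annotated gene (horizontal, in percent) against normalized coding reads per kilobase in the wild-type library (vertical, log scale), with 1 point per gene coloured by subunit. Rpl8 and Rps3 stand at the upper right, and Rpl39l with an equally distinct sequence at 10.1 reads per kilobase. Rpl24 lies at 691 without a unique window. The level of Rpl24 is overstated, since it was divided by 677 bases and most of its reads lay in a transcript of 4920 bases. GENCODE M21 places that transcript in another gene.

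On the scale of coding reads per kilobase, the medians of the subunits were of similar size. The large subunit had a median of 75.5 (2.14 to 2309) in the wild-type and 80.02 in the inversion library over 43 genes. The small subunit had a median of 55.4 and 66.9 over 30 genes. Genes of the large subunit thus differed by more than 1000-fold in reads per kilobase within the wild-type library. The lowest of these values, that of Rpl35, rested on 2 coding reads, so the size of this span is uncertain.

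Paralogs whose symbols end in l or l1 form a small group of 4, each named after a core protein. Rpl22l1 and Rpl22 had 63 and 1268 reads in the wild-type library and 71 and 1384 in the inversion library. Rpl22l1 held 4.73% of the pair (95% interval 3.66 to 6.02) and 4.88% (3.83 to 6.12), a difference within counting error. Its coding sequence is 70.2% identical to that of Rpl22. Rpl39l, known mainly from testis, held 8 of the 32 reads of its pair with Rpl39, or 25% (11.5 to 43.4), and then 4 of 40, or 10% (2.79 to 23.7), with overlapping intervals.

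Rpl7l1 and Rps27l had more assigned reads than the genes they are named after, which have fewer unique windows. Such windows made up 78.1% of Rpl7l1 and 33.2% of Rpl7. The part of reads that fit several places in these shares was not tested. Rps27l, known as a p53-responsive gene, had 117 and 98 reads and Rps27 had 11 and 13, so that the paralog held 91.4% (85.1 to 95.6) and 88.3% (80.8 to 93.6) of the pair. The intervals overlapped. Per kilobase of coding transcript, Rps27l stood at 95.1 and 84.2 and Rps27 at 24.3 and 28.0. Rpl7l1 held 89.4% (86.7 to 91.8) of its pair in the wild-type library and 73.6% (70.1 to 76.8) in the inversion library, the one pair whose intervals lay apart. Its own reads were 551 and 515, and those of Rpl7 were 65 and 185, of which 20 and 22 lay in coding transcripts and 45 and 163 in other types. The median log2 ratio of the 3 paralogs that passed was -0.13.

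How distinct a paralog is from its parent can be read from the first 60 coding bases (GRCm38, strand of the gene) of 2 pairs, in which capitals mark the bases of the paralog that differ from the parent.

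Rps27 (chr3:90213248-90213615, minus strand, 2 exons): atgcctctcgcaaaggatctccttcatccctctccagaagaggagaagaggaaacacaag

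Rps27l (chr9:66946175-66946884, plus strand, 2 exons): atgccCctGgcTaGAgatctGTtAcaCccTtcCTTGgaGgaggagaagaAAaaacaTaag

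Rpl39 (chrX:37084032-37085127, minus strand, 2 exons): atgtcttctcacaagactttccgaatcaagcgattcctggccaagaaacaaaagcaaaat

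Rpl39l (chr16:10174310-10174369, plus strand, 1 exon): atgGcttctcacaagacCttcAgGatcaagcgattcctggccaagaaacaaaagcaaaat

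Rps27l differs from Rps27 at 18 of these 60 bases and Rpl39l from Rpl39 at 4. Rps27 had 0% unique windows and Rps27l 72.9%, and Rpl39 had 13.5% and Rpl39l 100%. In the pair with Rps27 the more distinct gene thus had more reads, and in the pair with Rpl39 it had fewer.

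The 4 X-linked members were each higher in the inversion library. Rpl10 had 265 and 497 reads (0.87, 0.65 to 1.09), Rps4x 38 and 98 (1.31, 0.78 to 1.91), Rpl36a 102 and 140 (0.42, 0.04 to 0.80) and Rpl39 24 and 36 (0.53, -0.24 to 1.36). Their median was 0.70, and that of the 839 X-linked genes other than Xist was -0.05. In coding transcripts Rpl10 had 95 and 64 reads (-0.60, -1.09 to -0.13) and Rps4x 20 and 24 (0.22, -0.69 to 1.16). Rpl36a had 5 and 5 (-0.03, -2.16 to 2.08), under the minimum mean of 10, and Rpl39 16 and 16 (-0.03, -1.13 to 1.06). Apart from Rpl10, these reads were too few to detect even a change of 1.5-fold.

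Several members are known from mouse mutants. Rpl38, whose loss causes the tail-short skeletal phenotype and affects translation of Hox mRNAs, had 32 and 33 reads (0.01, -0.74 to 0.76), an interval too wide to detect a change of 1.5-fold. Rpl24, mutated in belly spot and tail mice, had 529 and 618 (0.19, 0.02 to 0.36), and its span overlaps a read-through gene on the same strand. Of these reads, 453 and 498 lay in a coding transcript of 4920 bases that GENCODE M21 places in another gene. The coding transcript of 677 bases had 9 and 5, so the ratio says little of Rpl24 itself. Rpl27a had 343 and 412 (0.23, 0.02 to 0.44). Rps20 had 427 and 431 (-0.02, -0.22 to 0.17) and Rps7 30 and 42 (0.44, -0.26 to 1.18). Rps19, the gene most often mutated in Diamond-Blackfan anaemia, had 116 and 283 (1.24, 0.93 to 1.58), with 31 and 64 reads in coding transcripts (0.99, 0.37 to 1.68). Of these coding reads, 16 and 57 lay in a transcript that keeps a whole intron of other coding transcripts. The remaining coding transcripts had 4 and 0, 2 and 0, 2 and 1, and 7 and 6.

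Free Rpl5 and Rpl11 are known to bind Mdm2 and so to stabilise p53. Rpl5 had 117 and 227 reads (0.91, 0.59 to 1.25) and Rpl11 77 and 185 (1.22, 0.84 to 1.63). In coding transcripts they had 29 and 25 (-0.24, -1.08 to 0.57) and 61 and 84 (0.42, -0.07 to 0.93). Of 12 p53 target genes 0 were 2-fold higher or lower and 0 had an interval apart from 0, with a median log2 ratio of -0.07. Mdm2 had 730 and 782 reads and Cdkn1a, a cell cycle inhibitor, 235 and 233. In the P stalk, which recruits elongation factors, Rplp0 had 125 and 139 reads (0.12, -0.24 to 0.48), Rplp1 39 and 40 (0.00, -0.67 to 0.67) and Rplp2 120 and 223 (0.85, 0.53 to 1.19). The reads of Rplp2 in coding transcripts were 66 and 86 and in other types 54 and 137.

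Ribosomal components that the symbols leave out were given for comparison. Gnb2l1, the scaffold protein Rack1 on the head of the small subunit, had 9528 and 8936 reads (-0.13, -0.17 to -0.09), more than any of the 80 genes. Fau, a fusion of a ubiquitin-like part with a ribosomal protein, had 161 and 185 (0.16, -0.15 to 0.48). Rpl36al had 99 and 104 (0.03, -0.38 to 0.45).

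Taken over all their transcripts, other groups of genes of protein synthesis had medians nearer to 0. The 76 mitochondrial ribosomal protein genes had a median log2 ratio of -0.11, with 0 at least 2-fold higher or lower, 4 intervals above 0 and 20 below. The 23 genes of ribosome biogenesis had a median of -0.08 and 0 beyond 2-fold, and among them the nucleolar protein Ncl had 4197 and 3503 reads (-0.30, -0.36 to -0.23) and Nop56, a snoRNP protein, 1497 and 1992 (0.38, 0.28 to 0.47). Among 15 translation factors and further mRNAs with a pyrimidine start, the median was 0.09, 7 intervals lay above 0 and 3 below, and Hnrnpa1, an RNA-binding protein, was the only gene 2-fold higher, with 65 and 174 reads (1.37). The elongation factor subunit Eef1b2 had 6165 and 5357 (-0.24, -0.29 to -0.19), whereas Eef1a1 had 123 and 224 (0.82, 0.51 to 1.16) and Naca, of the nascent chain complex, 228 and 452 (0.95, 0.72 to 1.19). In protein-coding transcripts alone the median of this group was -0.07. In transcripts of other types it was 0.59 over 9 genes, of which 3 were at least 2-fold higher, against 7.28% of all genes. There the interval lay above 0 for 7 genes and below 0 for 1, against 20.8% and 5.01% of all genes. Summed over the group, however, transcripts of other types had 7207 and 6938 reads (-0.09, -0.14 to -0.04). A gain in transcripts of other types was thus seen in single genes outside the family, but not in the sum of this group.

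The start sites of the family were searched for the pyrimidine run. RefSeq promoters on GRCm38.p6 were matched for 60 of the 80 members. A run of at least 5 C or T that covers or touches the annotated start, read on the strand of the gene, was present in 24 of them (40%), against 18.8% of 27025 genes. A run of at least 8 within 5 bases of the start was present in 22 (36.7%), against 9.63%. The 4 windows below hold 20 bases before and 20 from the start, with the longest run that comes within 5 bases of the start in capitals, the later one where 2 are equally long. Rpl7a, with 142 and 342 reads, is shown for the longest run, and Rps18, with 76 and 270, for a run of 11. Rps9 is shown as a member with many reads and a run, and Rps3 as one with many reads and none of that length. The next longest runs, in Rpl27a (20), Rpl34 (20), Rpl35 (18) and Rpl15 (17), went with log2 ratios of 0.23, 0.26, 1.97 and -0.08. A link between run and ratio was not tested.

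Rpl7a (chr2:26910787-26910826, plus strand, run of 21): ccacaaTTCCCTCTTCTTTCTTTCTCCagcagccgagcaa

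Rps18 (chr17:33955646-33955685, minus strand, run of 11): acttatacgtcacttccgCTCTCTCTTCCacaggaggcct

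Rps9 (chr7:3704021-3704060, plus strand, run of 9): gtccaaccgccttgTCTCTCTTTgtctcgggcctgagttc

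Rps3 (chr7:99483690-99483729, minus strand, run of 2): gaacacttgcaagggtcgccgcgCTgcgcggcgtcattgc

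The match describes the letters at an annotated start, which can differ from the start used in limb cells.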

How the data were processed

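The authors mapped the reads to NCBIM37 (mm9) with the HTSstation pipeline, and Bowtie2 is named in the submitters' processing notes. The deposited signal columns hold the reads of each transcript after division by 1 library-wide size factor, with 0.5 for no reads. The paper's methods name RPKM, but the values did not depend on length. Whole reads were recovered from 100% of values (tolerance 0.0051 reads). The authors' fold change, log2 and p-value columns, made from 1 library per genotype, were not used. Gene values are sums over transcripts with the same symbol and chromosome, with 0.5 read as 0. Types, lengths and positions came from GENCODE M21 on GRCm38, another build, matched by identifier for 88.1% of transcripts without converting coordinates. A stranded library was made, but the use of strand in assigning reads is not given in the sources used here. Arithmetic used Python 3.11.15, numpy 2.4.6, pandas 2.3.3 and scipy 1.17.1, figures matplotlib 3.10.9, and the steps were tested on simulated data.

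Named genes are the 10 members with the highest mean, the 5 highest and 5 lowest ratios, the paralogs with their parents, the X-linked members, members with mouse mutants, the Mdm2 binders, the P stalk with Rpsa, and 4 components outside the symbol rule. Some genes, among them 3 members, are counted in sums but not reported singly here. Other members were named after their values were seen. The members and lists were chosen with earlier results of these data known. Alternatives were other scalings, pseudocounts, filters and thresholds, 1 transcript per gene, coding transcripts only, and other definitions of the family.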

Additional observations from a re-analysis of the deposited data

How the results depend on the processing

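No paired analysis was possible because each genotype has 1 library. The scalings, which shifted all ratios by 0.01 and -0.02, and the pseudocounts of 5 and 0.1 moved no single member out of its counting interval. The choice of transcripts mattered. With the transcript of the highest mean the large subunit median was 0.138 and the difference of the subunits -0.27. With protein-coding transcripts only these were 0.0861 and -0.0104, the median of the translation factor and other TOP genes was -0.0719, the members at least 2-fold higher and lower numbered 3 and 2, and all genes at least 2-fold higher numbered 412. With transcripts of other types only, added later, the medians were 1.31 for the family, 1.36 for the large and 1.08 for the small subunit. Without overlapping members, added later, 12 members were at least 2-fold higher.

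Members at least 2-fold higher numbered 10 for means from 100 up, and 34 and 1 at thresholds of 1.5-fold and 4-fold. All genes higher and lower numbered 1992 and 1089 with no filter, 139 and 12 for means from 100 up, 1577 and 341 at 1.5-fold, and 113 and 13 at 4-fold. The family's share of reads was 0.373% and 0.397% with the 4 components outside the symbol rule and 0.287% and 0.318% with named pseudogenes, and its share outside coding transcripts 33.1% and 39.7%, and 24.9% and 34.7%. Unique windows of 100 bases had a median of 28.1%. Among members that were 2-fold higher or lower or had an interval apart from 0, those that changed sign included, in protein-coding transcripts, Rpl10 (-0.60), Rpl13a (-4.08), Rpl30 (-0.21), Rpl36a (-0.0301), Rpl5 (-0.24), Rps13 (-2.01), Rps2 (-0.28) and Rps27a (-1.09), and, in the transcript of the highest mean, Rpl13a (-0.14), Rplp2 (-0.0099) and Rps2 (-0.28). Of the other values of single members, 413 stayed within their interval and 32 moved beyond it without such a change. The coding transcripts of Rpl36a and Rps13 had means under 10. The few reads of many members limit what could be detected, and the causes were not tested.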
